A study of Rattus norvegicus with 18 samples.

Results

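The 31 genes described here encode the enzymes that make cholesterol and fatty acids and the proteins that switch these enzymes on and off. They were listed by name, with earlier results of these data known, and comprise 18 enzymes of the sterol pathway, 6 regulators and sterol carriers, and 7 enzymes of fatty acid synthesis and desaturation. All 31 were found by symbol among the 38445 genes of the count files, and each exceeded 1 CPM (counts relative to library size, TMM-normalized) in every rat, so that none was lost to the filter on low values. RNA-Seq was performed on the dorsal hippocampus of 18 adult male Sprague Dawley rats, 6 per group, which were 75 to 85 days old when obtained, before the diets began. Every rat lived on Lieber-DeCarli liquid diet, and the animals were pair-fed. Control rats received the diet without ethanol, rats of the ethanol group received it with 9% (v/v) ethanol for 16 days, and rats of the withdrawal group were moved back to the ethanol-free diet for the last 24 h after 15 days on 9% ethanol.

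Brain cholesterol is made locally, because lipoproteins of the blood hardly cross the blood-brain barrier. The pathway runs from acetyl-CoA through mevalonate to squalene, and from squalene through lanosterol to cholesterol. Astrocytes supply neurons with cholesterol, and oligodendrocytes build large amounts of it into myelin. The transcription factors SREBP1 and SREBP2, encoded by Srebf1 and Srebf2, are held in the endoplasmic reticulum by SCAP and the INSIG proteins while sterols are plentiful, and are released to the Golgi for cleavage when sterols run low. SREBP2 acts mainly on sterol genes and SREBP1c mainly on fatty acid genes, and Insig1 is itself one of their targets.

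The DNA just before the start of 4 genes is shown because these were the 4 that passed the test in a comparison, and because SREBP acts at such promoters together with the factor NF-Y, which binds CCAAT, and with Sp1, which binds the GC box GGGCGG. Each line holds the 250 bases upstream of the annotated start, 5′ to 3′ on the strand of the gene, from RefSeq on build GRCr8, with CCAAT and GGGCGG in either orientation (ATTGG and CCGCCC when reversed) in capitals. Hmgcs1 lies on the plus strand (chr2:53382054-53382303), as does Nsdhl (chrX:155817110-155817359). Insig1 lies on the minus strand (chr4:8057770-8058019), as does Srebf1, which has an entry for each of 2 starts (start A, chr10:45519011-45519260, and start B, chr10:45529165-45529414).
Hmgcs1: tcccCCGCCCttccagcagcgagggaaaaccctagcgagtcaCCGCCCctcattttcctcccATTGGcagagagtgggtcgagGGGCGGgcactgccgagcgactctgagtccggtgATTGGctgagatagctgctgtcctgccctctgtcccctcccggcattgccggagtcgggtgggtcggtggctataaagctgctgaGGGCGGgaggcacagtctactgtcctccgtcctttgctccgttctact
Nsdhl: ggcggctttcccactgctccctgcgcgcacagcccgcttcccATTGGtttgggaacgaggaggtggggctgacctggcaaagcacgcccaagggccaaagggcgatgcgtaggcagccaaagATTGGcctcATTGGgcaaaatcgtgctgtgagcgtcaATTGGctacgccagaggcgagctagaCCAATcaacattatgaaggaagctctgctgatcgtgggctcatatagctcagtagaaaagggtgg
Insig1: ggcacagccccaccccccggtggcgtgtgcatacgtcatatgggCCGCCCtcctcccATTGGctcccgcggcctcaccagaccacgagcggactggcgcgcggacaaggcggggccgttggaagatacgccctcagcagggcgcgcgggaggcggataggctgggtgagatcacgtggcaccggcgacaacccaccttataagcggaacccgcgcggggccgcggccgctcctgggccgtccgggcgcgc
Srebf1 start A: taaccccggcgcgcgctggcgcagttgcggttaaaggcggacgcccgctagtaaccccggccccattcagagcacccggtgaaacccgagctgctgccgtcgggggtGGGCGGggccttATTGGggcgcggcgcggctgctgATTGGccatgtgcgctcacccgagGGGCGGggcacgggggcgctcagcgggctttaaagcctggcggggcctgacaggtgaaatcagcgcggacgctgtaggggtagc
Srebf1 start B: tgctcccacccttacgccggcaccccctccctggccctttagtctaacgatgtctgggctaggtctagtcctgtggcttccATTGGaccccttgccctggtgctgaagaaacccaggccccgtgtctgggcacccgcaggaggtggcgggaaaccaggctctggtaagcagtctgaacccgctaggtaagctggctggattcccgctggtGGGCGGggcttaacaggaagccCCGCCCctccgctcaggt
Nsdhl carried 5 CCAAT matches and no GC box in this window, and Hmgcs1 carried 2 and 4. The counts per gene do not separate transcripts from the 2 starts of Srebf1.

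The promoter table held an entry for 24 of the 31 genes, with 25 promoters in all. CCAAT occurred in 19 of these 25, or 76.0%, against 34.02% of all 33469 promoters in the table. GGGCGG occurred in 21 of the 25, or 84.0%, against 30.5% of all promoters, and against 50.6% of the 15511 promoters of genes tested here. The sterol regulatory element TCACNCCAC occurred in 0 of the 25 on either strand, against 0.974% of all promoters, which says only that these letters are not in these windows. Of the genes with an entry, Scd, the desaturase that makes oleic acid, held none of the 3 motifs. The matches are plotted by their distance from the start.

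**Figure D1:**
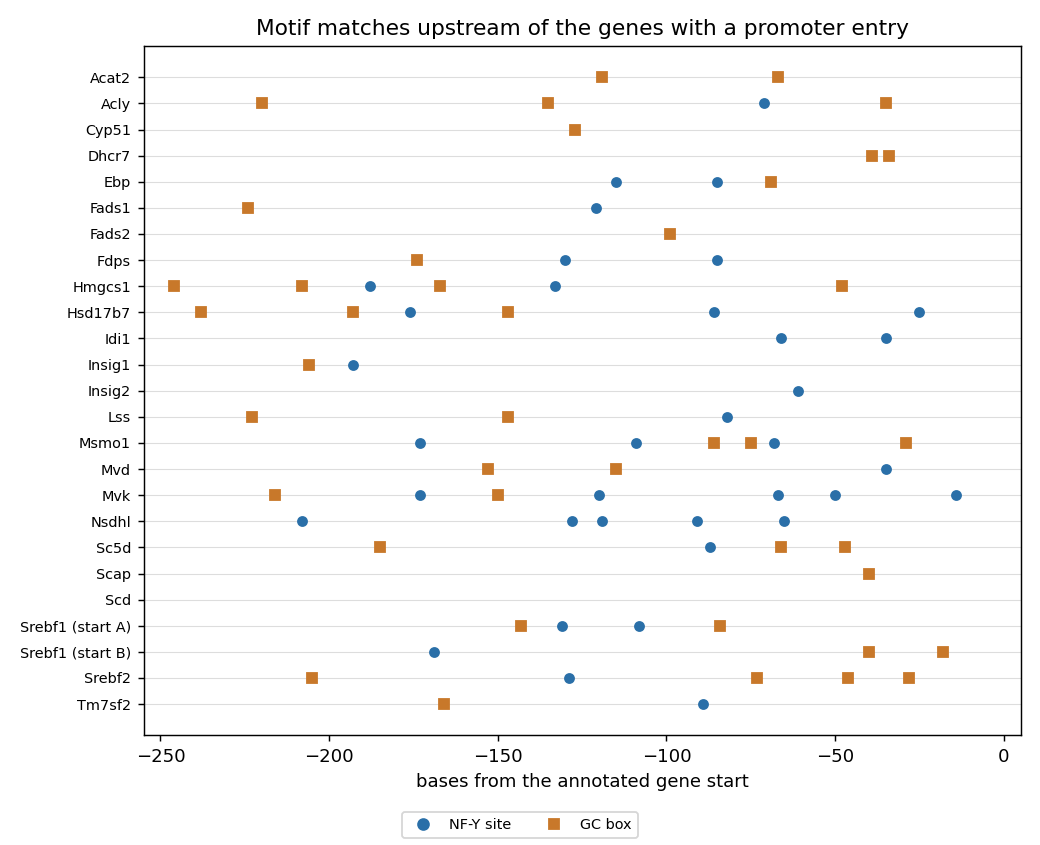
Matches upstream of the genes with a promoter entry, plotted by distance from the annotated start in bases (circles, CCAAT for NF-Y; squares, GGGCGG for Sp1; both strands). CCAAT is present in 19 of 25 promoters and GGGCGG in 21 of 25, and the sterol regulatory element, not drawn, in 0.

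Total counts ranged from 30873228 to 42679748 per rat. Defining markers of neurons, astrocytes and oligodendrocytes were above 0 in every group, as were 5 markers of hippocampal neurons that passed the filter. Choroid plexus markers varied most, with summed levels from 31.7 to 5305 CPM among the withdrawal rats. Withdrawal rat 5 had a hippocampal marker sum of 238 CPM, below the 489 to 820 CPM of the other 5 withdrawal rats. Ethanol rat 1 had the lowest hippocampal sum of its group, 414 CPM, and its highest thalamic and choroid plexus sums, 941 and 5294 CPM. The counts are of bulk tissue, in which fewer cells of a type and less RNA per cell cannot be told apart. The first library index differed with group (1 set for all controls, another for all ethanol rats and withdrawal rats 1 and 2, and one more for withdrawal rats 3 to 6), so that index and group cannot be told apart between control and the other groups.

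In control rats, level per kilobase of exon, the scale used here only to compare genes with each other, was highest for Hmgcs1, the cytosolic HMG-CoA synthase, at 100.3 CPM per kb (range 89.2 to 106.9 over 6 rats). Msmo1, which acts on methyl sterols, followed at 69.9 CPM per kb, and the ranges of these neighbours did not overlap. Cyp51, the lanosterol demethylase, at 60.5, and Fads1, a desaturase of polyunsaturated fatty acids, at 58.3 CPM per kb overlapped each other. Elovl6, an elongase of long saturated chains, was lowest at 0.885 CPM per kb, below Hsd17b7, a late sterol reductase, at 3.48. The 2 SREBP genes differed in level, with Srebf2 at 35.99 and Srebf1 at 21.004 CPM per kb and no overlap between their ranges.

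**Figure D2:**
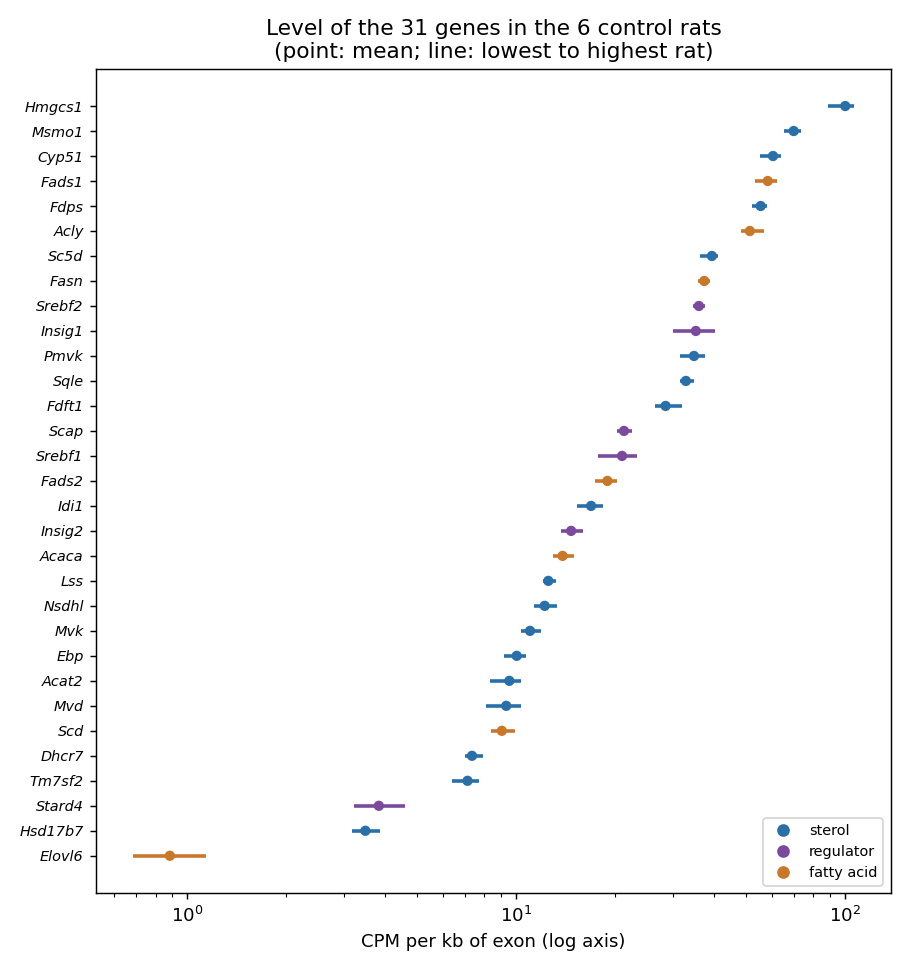
Level of each of the 31 genes in the 6 control rats, in CPM per kb of exon on a log axis (point, mean; line, lowest to highest rat; colours, the 3 roles). Levels run from 0.885 for Elovl6 to 100.3 for Hmgcs1, and most neighbours in the order overlap.

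The comparison of withdrawal with control asks what differed one day after ethanol was taken away. Of the 18 sterol enzymes 2 were lower in withdrawn rats, and among the regulators Srebf1 was higher. Hmgcs1, which makes the HMG-CoA from which mevalonate is formed, was 19.7% lower. Nsdhl, which takes part in removing methyl groups from the sterol ring, was 11.3% lower. Srebf1 was 25.2% higher. These percentages come from the fitted log2 fold changes of the model, not from the mean CPM. These 3 of the 31 genes passed q < 0.1 with limma-voom (1 higher, 2 lower), against 5.41% of all genes tested. The rats of withdrawal and control did not separate completely for any of the 31, where 1.06% of all genes did.

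Hmgcs1 ranged from 312 to 374 CPM in control rats (median 355, mean 351 ± 23.02 SD), from 251 to 376 in ethanol rats (median 325) and from 243 to 349 in withdrawal rats (median 291, mean 289 ± 38.5). Withdrawal rat 2, at 349 CPM, lay among the controls, and the other 5 were below all 6 of them. The log2 fold change of withdrawal against control was -0.32 (SE 0.092, q = 0.0788, limma-voom). Nsdhl ranged from 33.3 to 39.2 CPM in controls (median 35.6), from 32.6 to 35.7 in ethanol rats (median 34.3) and from 28.1 to 33.8 in withdrawal rats (median 32.1). Its groups met only at the edge, where the upper withdrawal rats reached the lower controls, and the log2 fold change was -0.17 (SE 0.049, q = 0.0733, limma-voom).

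Srebf1 ranged from 78.9 to 104 CPM in controls (median 94.2, mean 93.4 ± 8.57), from 90.8 to 128 in ethanol rats (median 108.8) and from 98.3 to 129.6 in withdrawal rats (median 110.9, mean 113.7 ± 11.5). The withdrawal rats overlapped the upper controls, and the log2 fold change was 0.32 (SE 0.062, q = 0.0204, limma-voom). Its exons overlap those of Rai1 on the opposite strand, and the counting was stranded. With limma-voom, all 3 calls rest on the surrogate variables of the model, which stand for unlabelled variation among the libraries. Without them q was 0.261 for Hmgcs1, 0.201 for Nsdhl and 0.193 for Srebf1, with log2 fold changes of -0.29, -0.18 and 0.28, and the calls over all genes dropped from 965 to 41. DESeq2 without surrogate variables called Nsdhl (q = 0.0517) and Srebf1 (q = 0.0603) but not Hmgcs1 (q = 0.138), with 2.44% of all genes called. Leaving out 1 rat at a time, Srebf1 passed in 17 of 18 limma-voom fits, Nsdhl in 12 and Hmgcs1 in 10, and none of the 3 passed without withdrawal rat 6 (q = 0.114, 0.181 and 0.322), where 0.129% of all genes passed.

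**Figure D3:**
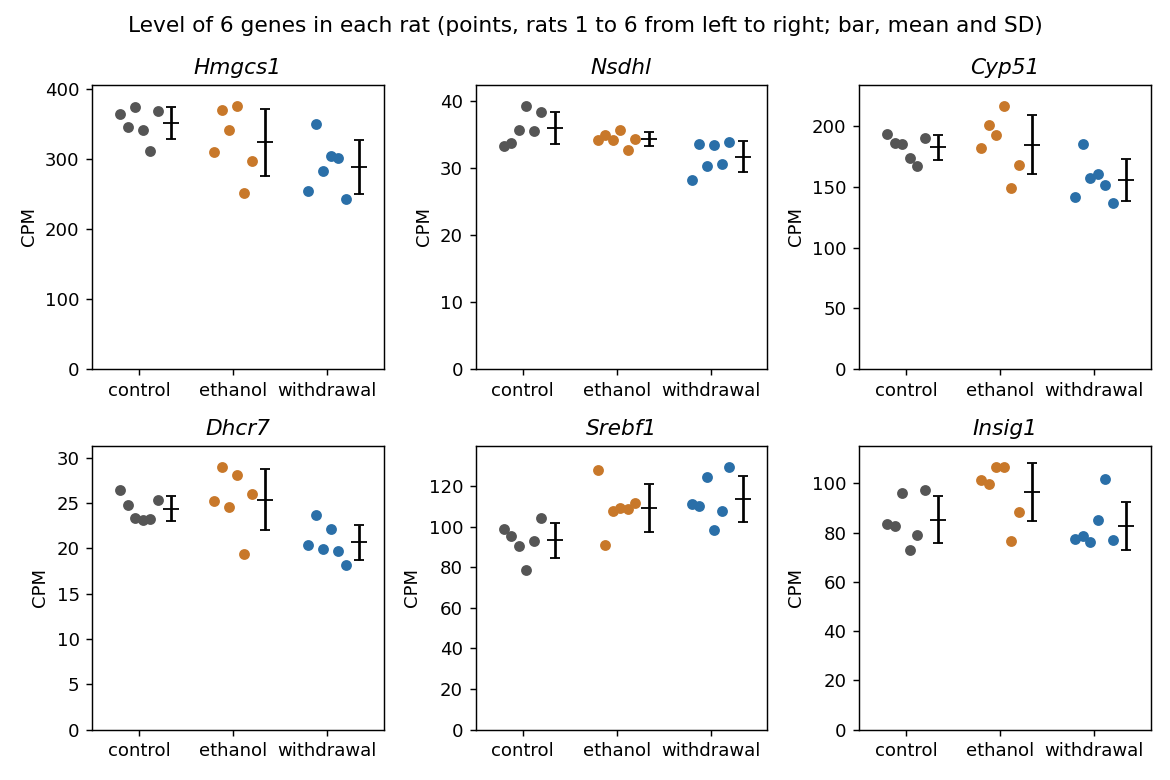
Level in CPM of 4 sterol enzyme genes, Srebf1 and Insig1 in each of the 18 rats (points in the order of rat number within a group; bar, mean and SD, n = 6). For Hmgcs1, 5 of 6 withdrawal rats lie below all controls, and for Insig1 withdrawal rat 5 lies apart from the rest of its group at 101.7 CPM.

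The other sterol enzymes had values in the same direction that did not pass. Log2 fold changes of withdrawal against control were below 0 for 17 of the 18, with a median of -0.17, where the median of all 17853 genes tested was 0.00 and 49.9% were below 0. At an unadjusted p under 0.05 stood 12 of the 18, all lower, against 19.7% of all genes. On the way from acetyl-CoA to squalene, 7 of 8 enzymes had values below 0, with a median of -0.14. The exception was Mvd, the mevalonate diphosphate decarboxylase, at 0.03 (SE 0.079, q = 0.882, limma-voom). Acat2, the thiolase that starts the pathway, stood at -0.30 (SE 0.11, q = 0.142), with a mean of 13.1 ± 2.44 CPM in withdrawal and 15.9 ± 1.30 in control.

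From squalene to cholesterol, all 10 enzymes had values below 0, with a median of -0.19. Cyp51 was at 183 ± 10.1 CPM in control and 156 ± 17.2 in withdrawal (log2 fold change -0.24, q = 0.120, limma-voom). Dhcr7, the reductase of the last step, was at 24.4 ± 1.34 and 20.6 ± 1.93 CPM (-0.25, q = 0.125). Sc5d, a sterol desaturase, was at 194.8 ± 8.77 and 172 ± 10.3 CPM (-0.19, q = 0.105). The remaining enzymes of this stretch (Sqle, Lss, Tm7sf2, Msmo1, Hsd17b7 and Ebp) ranged from -0.22 to -0.08, and Idi1, Fdps, Fdft1, Mvk and Pmvk of the first stretch from -0.16 to -0.11. Over the 32 model settings run, which include leaving out each rat, the median of the 18 stayed between -0.19 and -0.13, and 17 or 18 of them were below 0.

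**Figure D4:**
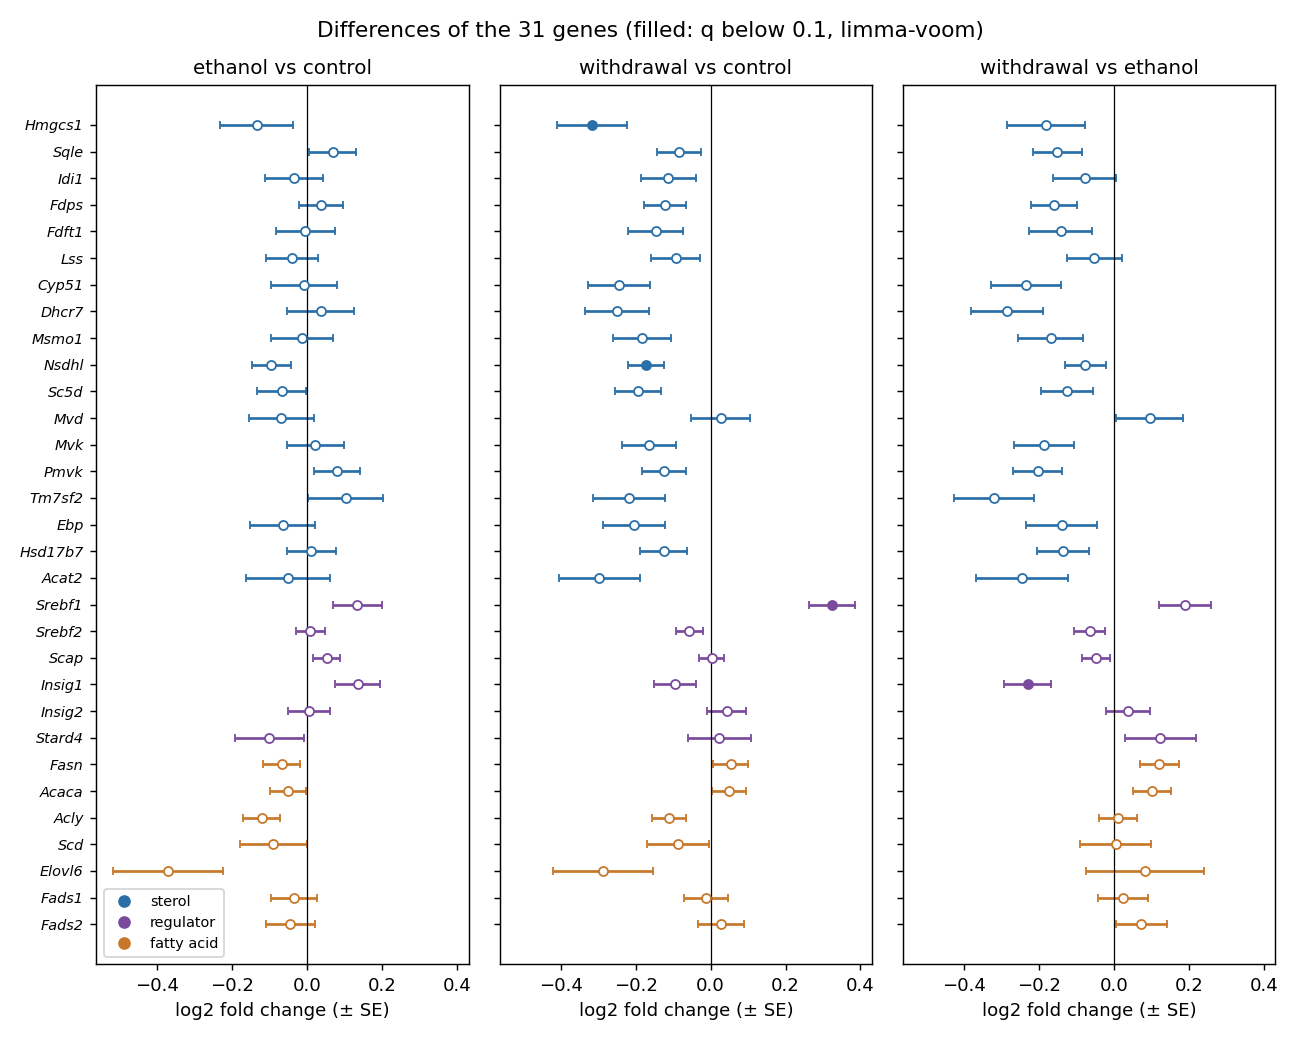
Log2 fold change ± SE of each of the 31 genes in the 3 comparisons (limma-voom, 6 rats per group; colours, the 3 roles; filled points, q below 0.1). In both comparisons of withdrawal, 17 of the 18 sterol enzymes lie below 0, and only 4 points are filled in all.

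The same rats were often low or high for many of the sterol enzymes. Averaged over the 18 genes, log2 CPM was 5.38 to 5.49 in control rats (median 5.43), 5.21 to 5.62 in ethanol rats (median 5.46) and 5.12 to 5.42 in withdrawal rats (median 5.26). The controls were the tightest group and the ethanol rats the most spread, so that 1 ethanol rat reached the level of the lower withdrawal rats. Within the ethanol group, rat 5 was the lowest for 16 of the 18 genes and rat 4 the highest for 12. Withdrawal rat 1 was the lowest of all 18 rats for 8 of them. The mean of withdrawal was 0.16 below control, or 0.13 without withdrawal rat 1.

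Oligodendrocyte markers, whose cells carry the myelin cholesterol, stood beside this. Their summed level was 13457 to 18526 CPM in control, 13180 to 19433 in ethanol and 13462 to 16115 in withdrawal rats, with none of the 10 markers at 0. The rat with the highest marker sum was also the rat with the highest sterol average in each of the 3 groups (control rat 6, ethanol rat 4 and withdrawal rat 2). The lowest coincided in the ethanol group (rat 5) and in the withdrawal group (rat 1), but not in the controls. Between these extremes the order was not kept. Ethanol rat 2 had a low marker sum (13677 CPM) and a high sterol average (5.55). Ethanol rat 6 had a high sum (17480 CPM) and a low average (5.39). Over all genes, 5.41% passed q < 0.1 for withdrawal against control with limma-voom, and 19.7% had an unadjusted p under 0.05. Of the 10 markers, 0 passed and 3 had an unadjusted p under 0.05, all lower, with a median log2 fold change of -0.16 over the list. Of 8 astrocyte markers, 3 passed, Gfap higher and Aldh1l1 and Gja1 lower, and their summed level was 3599 to 3993 CPM in control and 3363 to 4657 in withdrawal rats, with none at 0. Of the other marker lists, 2 of 4 endothelial markers were higher and 1 of 5 hippocampal markers was lower, and 0 of 6 neuronal, 0 of 5 microglial, 0 of 6 choroid plexus and 0 of 4 thalamic markers passed with limma-voom, where 1, 0, 1 and 0 had an unadjusted p under 0.05. The part of any cell type in the sterol values was not tested.

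**Figure D5:**
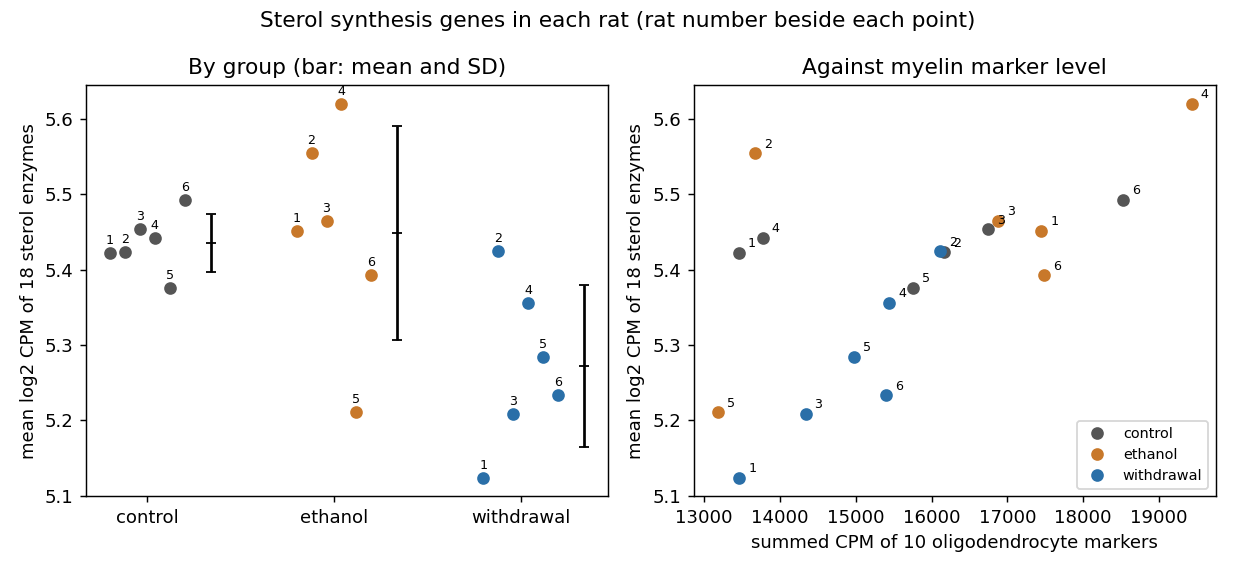
Mean log2 CPM of the 18 sterol enzymes in each rat, by group (left; bar, mean and SD, n = 6) and against the summed CPM of 10 oligodendrocyte markers (right; numbers, rat within the group). Withdrawal rats lie between 5.12 and 5.42 and controls between 5.38 and 5.49. The rat with the highest marker sum has the highest sterol value in each group. Ethanol rats 2 (13677 CPM, 5.55) and 6 (17480 CPM, 5.39) go the other way.

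None of the other 5 regulators and carriers passed in withdrawal against control. Insig1 stood at -0.10 (SE 0.056, q = 0.364, limma-voom), and at -0.04 without surrogate variables. Srebf2 ranged from 193 to 210 CPM in control (median 202), from 173 to 216 in ethanol (median 199) and from 175 to 214 in withdrawal rats (median 191), with a log2 fold change of -0.06 (SE 0.036, q = 0.398, limma-voom). Scap, the escort protein that senses cholesterol, ranged from 120 to 133 CPM in control (median 125), from 125 to 136 in ethanol (median 129.7) and from 113 to 134 in withdrawal rats (median 128), and its log2 fold change was 0.00 (SE 0.034, q = 0.974). The groups overlapped broadly for both genes. Insig2, the related retention protein, was at 0.04 and Stard4, a cytosolic cholesterol carrier, at 0.02, both with q above that of Srebf2.

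The 7 fatty acid genes held no call in withdrawal against control, and their median was -0.01 with 4 below 0. Over settings it ranged from -0.07 without surrogate variables to 0.03 without withdrawal rat 6, so that its sign was not fixed. At an unadjusted p under 0.05 stood 2 of the 7, or 28.6%, against 19.7% of all genes, and edgeR and DESeq2 called 0. Fasn, the fatty acid synthase, was at 341.5 ± 10.1 CPM in control and 354 ± 10.4 in withdrawal (log2 fold change 0.05, q = 0.551, limma-voom). Acly, which supplies cytosolic acetyl-CoA to both pathways, was at 222 ± 14.2 and 206 ± 10.4 CPM (-0.11, q = 0.193). Acaca, the rate-limiting carboxylase, was at 0.05 (q = 0.580), and Scd at -0.09 (q = 0.599). Fads1 and Fads2, which desaturate polyunsaturated fatty acids, were at -0.01 and 0.03. Elovl6, the least expressed, was at 2.21 ± 0.433 CPM in control and 1.81 ± 0.214 in withdrawal (-0.29, SE 0.13, q = 0.245).

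The comparison of withdrawal with ethanol sets rats 24 h off the ethanol diet against rats still on it. Of the 31 genes, 1 passed q < 0.1 with limma-voom, against 2.72% of all genes tested, and for 0 of them did the rats of the groups separate completely, against 1.22% of all genes. That gene was Insig1, which retains the SCAP and SREBP complex when sterols are plentiful, and by its fitted fold change it was 14.7% lower. It ranged from 72.9 to 97.2 CPM in control (median 83.0), from 76.5 to 106.7 in ethanol (median 100.5, mean 96.5 ± 11.9) and from 76.1 to 101.7 in withdrawal rats (median 78.15, mean 82.7 ± 9.80). Of the withdrawal rats, 5 lay between 76.1 and 84.95 CPM and rat 5 at 101.7, and ethanol rat 5, at 76.5, lay among the lower withdrawal rats. The log2 fold change was -0.23 (SE 0.063, q = 0.0883, limma-voom), and -0.23 without withdrawal rat 5 (q = 0.0727). Without surrogate variables it was -0.22 (q = 0.218), and the call was lost in 9 of the 18 fits that left out 1 rat.

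Against ethanol, 17 of the 18 sterol enzymes stood below 0, with a median of -0.16, where the median of all genes tested was -0.0002. Mvd was again the exception at 0.10 (q = 0.626, limma-voom). None of the 18 passed with limma-voom, and 7 had an unadjusted p under 0.05, all lower, against 16.7% of all genes. DESeq2 without surrogate variables called 4 of the 18, all lower, against 8.08% of all genes. The ethanol rats serve in this comparison in place of the controls, but the withdrawal rats are those of the comparison above. The lowest value was that of Tm7sf2, a sterol reductase, at -0.32 (SE 0.11, q = 0.144), with 11.0 ± 1.68 CPM in ethanol and 8.83 ± 0.937 in withdrawal. Dhcr7 stood at -0.29 (SE 0.096, q = 0.148), with 25.4 ± 3.38 and 20.6 ± 1.93 CPM, and passed without surrogate variables (q = 0.0947). The median ranged from -0.23 to -0.09 over 33 settings. The number of calls changed with single rats, and most without ethanol rat 5, where 13 of the 31 genes passed against 10.1% of all genes. Of these 13, 11 were sterol enzymes, all lower, and the median over the 18 was -0.23. Without withdrawal rat 2, 5 of the 31 passed against 5.66% of all genes. Among rats that share the first index, the sterol average of withdrawal rat 1 was 0.33 below the mean of the ethanol rats and that of withdrawal rat 2 was 0.02 below it, so that their joint difference rests on rat 1. Withdrawal rats 3 to 6, with another index, were 0.09 to 0.24 below it.

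Markers of the main cell types were compared between withdrawal and ethanol rats as well. Summed astrocyte markers ranged from 3165 to 3852 CPM in ethanol rats and from 3363 to 4657 in withdrawal rats, of which 5 of 6 were above every ethanol rat. With limma-voom, 1 of 8 astrocyte markers (Gfap) and 1 of 6 neuronal markers (Gad2) were higher, against 2.72% of all genes called. No marker of the other lists passed. At an unadjusted p under 0.05 stood 3 of 8 astrocyte, 2 of 6 neuronal, 3 of 6 choroid plexus, 1 of 4 thalamic and 1 of 10 oligodendrocyte markers, and none of the hippocampal, microglial and endothelial ones. Over all genes tested the share was 16.7%. Oligodendrocyte markers had a median of -0.05, or -0.15 without surrogate variables, and DESeq2 without surrogate variables called 1 of them lower. The part of any cell type in the sterol values was not tested here either.

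Srebf1 stood at 0.19 against ethanol (SE 0.069, q = 0.174, limma-voom), and at 0.06 without surrogate variables. Srebf2 stood at -0.07 (q = 0.437) and Scap at -0.05 (q = 0.549). All 7 fatty acid genes had values above 0, with a median of 0.07 and none passing, but 5 of the 7 were below 0 without surrogate variables. Fasn, at 327 ± 24.8 CPM in ethanol and 354 ± 10.4 in withdrawal, held the largest of these values with surrogate variables (0.12, SE 0.052, q = 0.249).

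Ethanol diet against control diet asks what chronic exposure itself did. None of the 31 genes passed q < 0.1 with limma-voom, against 0.493% of all genes tested, and 0 of them separated the rats of these groups, against 1.32% of all genes. At an unadjusted p under 0.05 stood 3 of the 31, against 12.5% of all genes, and edgeR and DESeq2 called 0 of them as well. These 3 were Insig1 at 0.13 (SE 0.060, q = 0.367, limma-voom), Acly at -0.12 (SE 0.049, q = 0.311) and Elovl6 at -0.37 (SE 0.15, q = 0.309). The sterol enzymes had a median of -0.01 with 11 of 18 below 0, and the range over settings, -0.06 to 0.06, spanned 0. The 7 fatty acid genes were all below 0, with a median of -0.07 that ranged from -0.11 to -0.01 over settings and stood at -0.02 without surrogate variables, and 5 of the 7 were below 0 without ethanol rat 5. Srebf1 stood at 0.13 (q = 0.426) and at 0.23 without surrogate variables (q = 0.306), Srebf2 at 0.01 (q = 0.957) and Scap at 0.05 (q = 0.591).

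Other genes of the same pathways were taken from lists of related functions. Of 29 other fatty acid genes, 2 were higher and 4 lower in withdrawal than in control at q < 0.1 (limma-voom), beside the 5.41% called over all genes. With edgeR without surrogate variables, 1 was higher and 1 lower, where 0.185% of all genes were called. Acacb, the carboxylase whose malonyl-CoA restrains fatty acid oxidation in mitochondria, had the smallest q. It was at 16.7 to 21.1 CPM in control rats and 10.3 to 15.3 in withdrawal rats, which did not overlap, and fell by 0.57 on the log2 scale (SE 0.083, q = 0.00984, limma-voom; q = 0.0695 without surrogate variables). Elovl2, an elongase of polyunsaturated chains, was at 50.8 to 56.7 CPM in control and 59.2 to 75.0 in withdrawal rats, again without overlap, and rose by 0.33 (SE 0.066, q = 0.0230; 0.0777 without surrogate variables). With limma-voom, both passed with and without surrogate variables, as none of the 31 genes did in that comparison.

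Mid1ip1, an activator of acetyl-CoA carboxylase, rose by 0.28 (q = 0.0258, limma-voom). Fads6, of the desaturase family, was at -0.28 (q = 0.0332) and Dgat2, an enzyme of triglyceride synthesis, at -0.31 (q = 0.0387), both lower. Of 13 other sterol and isoprenoid enzymes only Cyp7b1, a hydroxylase of oxysterols, passed, with a log2 fold change of -0.38 (q = 0.0355), and the rats of the groups overlapped. Without surrogate variables none of these 4 calls held (q = 0.261 for Mid1ip1, 0.337 for Fads6, 0.295 for Dgat2 and 0.206 for Cyp7b1). Of 12 other genes of SREBP processing, 2 were lower. Of 17 genes of sterol uptake, trafficking and efflux 0 passed with limma-voom, edgeR or DESeq2. An unadjusted p under 0.05 was found for 4 of the 17, or 23.5%, against 19.7% of all genes. In withdrawal against ethanol, without surrogate variables, DESeq2 called 1 of them higher and 2 lower (8.08% of all genes). EdgeR called 1 lower there (3.82% of all genes). Against ethanol, Dgat2 was lower (-0.38, q = 0.0472), Acacb was lower (-0.39, q = 0.0620) and Hsd17b12, a reductase of the elongation cycle, was higher (0.26, q = 0.0508). Without surrogate variables Acacb passed (q = 0.0472), and Dgat2 (q = 0.130) and Hsd17b12 (q = 0.123) did not. In ethanol against control none of these lists held a call with limma-voom.

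The remaining calls of these lists in withdrawal against control fell outside the 6 genes of smallest q and are named after their values were seen. Mbtps2, the protease that makes the second of the cleavages that free SREBP, was at 29.2 to 34.7 CPM in control and 22.2 to 27.4 in withdrawal rats, without overlap (-0.22, SE 0.060, q = 0.0638, limma-voom). Acss2, which turns acetate into acetyl-CoA, was at 75.2 to 83.5 CPM in control and 63.4 to 73.9 in withdrawal rats, also without overlap (-0.20, SE 0.049, q = 0.0468). Ubxn8, which binds to the machinery that degrades proteins of the endoplasmic reticulum, was at -0.15 (SE 0.041, q = 0.0658), and its groups overlapped. Without surrogate variables q was 0.160 for Mbtps2, 0.150 for Acss2 and 0.261 for Ubxn8.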

How the data were processed

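RNA-Seq reads (TruSeq Stranded, paired-end) were aligned by the authors with STAR 2.5.2a to Rnor_6.0 (NCBI annotation 106). They deposited raw counts made by featureCounts 1.5.0, which assigned fragments to exons by strand and left out multi-mapping reads. Genes were named from a RefSeq table of GRCr8, used for names only (29322 of 38445 IDs matched). Promoter windows come from RefSeq on GRCr8.

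After TMM normalization (edgeR 4.0.16), the 17853 genes above 0.5 CPM in 1 or more rats were tested. The model was limma-voom (limma 3.58.1, R 4.3.3) over all 18 rats with 3 surrogate variables (sva 3.50.0, from log2 CPM, prior count 2), a number that the sources do not give. q is Benjamini-Hochberg adjusted over all genes within each comparison, with q < 0.1 as threshold, and fold changes are log2. CPM and the sterol averages are not adjusted for surrogate variables, while percent differences come from the fitted fold changes, which are. DESeq2 1.42.0 and edgeR's quasi-likelihood test were alternatives. Plots used matplotlib 3.10.9.

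The 31 genes, the other lists and the rules for naming were chosen with earlier results of these data known. Genes that passed and the main regulators are given by rat, and other list genes by smallest q, at most 6 a comparison. No 2 rats of a group had counts close enough to be 1 library. Replicate numbers are shared between groups, but the animal labels differ. Deviations of same-numbered rats correlated from -0.33 to 0.38 over 18 pairs (median -0.07), so the numbers were not taken as pairs.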

Additional observations from a re-analysis of the deposited data

Results flagged for a closer look

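In 93 combinations of gene and group, the gap of the highest or lowest rat to its neighbour was compared with Dixon's critical value for 6 samples, which chance exceeds in about 1 of 20 groups. Only Insig1 in the withdrawal group exceeded it. Withdrawal rat 5, the highest of its group, stood at 101.7 CPM and the other 5 at 76.1 to 84.95 CPM (ratio 0.654). This rat also had the lowest hippocampal marker sum of all 18, 238 CPM, and a choroid plexus marker sum of 31.7 CPM, close to the 31.8 CPM of withdrawal rat 4. The part of these in the Insig1 value was not tested.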

How the results depend on the processing

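The 3 calls of withdrawal against control and the 1 call of withdrawal against ethanol depended on the model, while the direction of every called gene held in all alternatives run. Percentages are the share of all genes called in the same fit. For withdrawal against control the number of genes called became 0 without surrogate variables (limma-voom, 0.230%; edgeR, 0.185%; and limma-voom also without withdrawal rat 1, an alternative chosen after seeing the data, 0%), 1 at q < 0.05 (2.07%), 1 with no filter (1.66%), 5 with sample quality weights (6.34%), 7 with only the 2 groups compared (6.60%) and 8 with a replicate block (5.27%). For withdrawal against ethanol it became 0 at q < 0.05 (0.627%), with 2 surrogate variables (1.46%), with no filter (0.566%), with only the 2 groups compared (0%), with the replicate block (0.0056%), among rats of the shared index (0%), and without withdrawal rat 1 and surrogate variables (0.921%). It became 2 with edgeR (3.82%) and 4 with DESeq2 (8.08%), both without surrogate variables, and 4 with sample quality weights (6.01%). The replicate block changed no count of ethanol against control, which was 0 in every setting.

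Leaving out each rat in turn gave 0 to 9 calls for withdrawal against control, where the share of all genes ranged from 0.129% to 10.7%, and 0 to 13 for withdrawal against ethanol, where it ranged from 0% to 10.1%. In the first, the count was 0 without withdrawal rat 6 (0.129%), 1 without control rats 3, 4 or 6 or withdrawal rats 1 or 3 (2.40% to 3.53%), 5 without withdrawal rat 4 (6.44%), 6 without ethanol rat 5 (6.19%) and 9 without withdrawal rat 2 (10.7%). In the second, it was 13 without ethanol rat 5 (10.1%), 5 without withdrawal rat 2 (5.66%), and 0 without control rats 1, 2 or 5, ethanol rats 2, 3, 4 or 6, or withdrawal rats 3 or 6 (0% to 3.15%). The median over the 31 genes for ethanol against control, -0.04, ranged from -0.076 to 0.037 when each rat was left out and from -0.05 to 0.02 over the other settings. It turned above 0 without ethanol rat 5, without surrogate variables (limma-voom, edgeR and DESeq2) and with only the 2 groups compared. The median for withdrawal against control ranged from -0.13 to -0.08, and that for withdrawal against ethanol from -0.13 to -0.05, over all of these settings. The cause of these shifts was not tested. Of 2914 fold changes of single genes under alternatives, 2783 kept their sign and 131 changed it, none of them of a gene called in that comparison. In 42 a call was lost and in 51 one was gained.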
